A study of Mus musculus with 6 samples.

Results

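The nuclear tRNA features of the anticodon families Tyr-GTA, Leu-CAA, Ile-TAT and Arg-TCT were examined in mouse hearts with and without Elac2. They were chosen by name: every mature or precursor tRNA row carrying one of these 4 anticodons, which gave 45 of 30638 features, 26 of them precursors and 19 mature forms. Hearts came from 6 C57BL/6 mice, 3 of them controls labelled L/L with the genotype Elac2 +/+, and 3 knockouts labelled L/L, cre with the genotype Elac2 -/-. All 6 mice are described as carrying a loxP-flanked Elac2 exon, which the knockouts lose through cre driven by the MCK promoter. That promoter, from the creatine kinase gene of muscle, acts in striated muscle, so the other cells of a whole heart keep the gene. Total RNA was made into libraries of 15 to 100 nt inserts, and the sources used here give no ages for the mice. In bulk hearts, fewer cells of a type and less RNA per cell cannot be told apart.

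In mammals the tRNA genes that carry an intron belong mainly to these 4 anticodon families, and tyrosine is the family best known for interrupted genes. A primary transcript loses its 5′ leader to RNase P and its 3′ trailer to RNase Z, the product of Elac2. The splicing endonuclease then cuts out the intron, which lies 1 base 3′ of the anticodon, and a ligase joins the cut ends before the tRNA is used in translation. A feature name gives the amino acid, the anticodon, a number for the isodecoder (tRNAs with the same anticodon and a different body) and, for precursors, a number for the gene copy. Mature Tyr-GTA-1 therefore belongs with the precursor copies Tyr-GTA-1-1 to Tyr-GTA-1-5.

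RefSeq (GRCm38.p6) lists 20 genes with these anticodons, 11 of them on chromosome 13. The 10 tyrosine genes are 86 to 93 nt long, the 4 Leu-CAA genes 105 to 107 nt, the Ile-TAT gene 94 nt and the 5 Arg-TCT genes 74 to 87 nt. Of 340 other nuclear tRNA genes outside leucine, serine and selenocysteine, 3 are longer than 80 nt. An unspliced Leu-CAA transcript is thus longer than the 100 nt limit of the inserts. RefSeq names do not pair with the copy numbers of the features, so no position is given for a single feature. Of the 20 genes, n-TRtct5 lies in an intron of Aim2, n-TYgta1 in an intron of 1700064H15Rik and n-TYgta6 in an intron of the lincRNA C230035I16Rik by GENCODE M21. The gene n-TRtct4 overlaps a UTR of Hes7, n-TRtct2 an exon of a retained-intron transcript of Gm17494, and n-TItat14 the miRNA gene Mir1983, while the other 14 overlap no GENCODE gene.

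The pair of genes whose full sequence could be read shows what separates a precursor from a mature form. Each is printed 5′ to 3′ with the intron in capitals and with its flanks, the leader before and the trailer after the gene. The first, on the minus strand at chr13:21896918-21897049 (GRCm38.p6, RefSeq), is the hairpin annotated as Mir1983 and holds the Ile-TAT gene n-TItat14.
Ile-TAT n-TItat14: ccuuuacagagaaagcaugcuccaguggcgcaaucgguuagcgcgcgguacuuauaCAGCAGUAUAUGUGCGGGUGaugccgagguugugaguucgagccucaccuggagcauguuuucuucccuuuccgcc
The second, on the minus strand at chr3:122292928-122293052 (GRCm38, from the GENCODE M21 transcript of Gm17494), is the Arg-TCT gene n-TRtct2.
Arg-TCT n-TRtct2: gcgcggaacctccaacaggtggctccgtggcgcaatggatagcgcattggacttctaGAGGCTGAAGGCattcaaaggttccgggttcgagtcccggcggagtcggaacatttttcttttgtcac
The introns of 20 and 12 nt were placed by rule, as the bases left over when the anticodon loop is closed by its stem of 5 pairs, which leaves spliced bodies of 74 and 73 nt. After the gene, the first run of 4 T (or U) begins 3 nt past the end of n-TItat14 and 6 nt past that of n-TRtct2. The mature miRNA annotated in the Ile-TAT gene is shown because it crosses the site that RNase Z cuts. It lies at chr13:21896930-21896950, with its seed (bases 2 to 8) in capitals on the first line and its 8 bases past the end of the tRNA gene in capitals on the second.
mmu-miR-1983, seed: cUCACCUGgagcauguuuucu
mmu-miR-1983, trailer: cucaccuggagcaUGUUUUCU

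Libraries held 13510061 to 16248673 counts. Features with any count numbered 4664, 6018 and 5845 in controls and 3160, 3095 and 2995 in knockouts. The part of that difference in the results below was not tested. Member precursors took 885 to 2032 counts and member mature forms 859 to 2190 counts of a library, so single features rest on few reads. Heart miRNAs marked all 6 libraries, with at least 473938 counts of Mir1a-2 in each, while the skeletal muscle miRNA Mir206 had 0. Of the neuron markers, Mir9-1 had 221 to 399 counts in each library and Mir124a-1 had 0. The liver marker Mir122 had 10 to 36 counts in each library. Neither Mir9-1 nor Mir122 was called. Some markers differed between the groups: Mir1a-1 and Mir1a-2 of muscle were lower in knockouts (log2 fold changes -0.57 and -0.61, edgeR adjusted p = 0.0042 and 0.00183), while Mir208b of heart muscle (0.79, adjusted p = 0.0399), Mir144 of red cells (0.85, adjusted p = 0.0353) and Mir217 (5.52, adjusted p = 6.05e-07) were higher. Other heart muscle markers went the opposite way from Mir208b and were not called: Mir208a (-0.35), Mir499 (-0.34), Mir133a-1 (-0.45) and Mir133a-2 (-0.44). Mir451a of red cells was not called either (0.40, edgeR adjusted p = 0.258), nor was Mir142 of blood (0.51, adjusted p = 0.0751). Mir217, a pancreas marker, had 1, 2 and 3 counts in controls and 80, 69 and 77 in knockouts. It had enough counts to be tested only through the knockouts. The other pancreas markers were not tested. Mir375 had 1 to 9 counts in each library, and Mir216a had 0 in controls and 5 to 13 in knockouts. The part of the markers in the tRNA results was not tested. The libraries hold small RNA, and the loss of Elac2 itself was not analysed here. The labels do not say how the mice are related, and the p-values measure the spread between these samples. Gene copies of 1 isodecoder can be near-identical, so counts of single copies are uncertain, and sums per anticodon and form stand beside them. Knockout was compared with control by edgeR's quasi-likelihood test, and an adjusted p (Benjamini-Hochberg over all features tested) under 0.05 was called. Levels are CPM, counts relative to a library's total after TMM scaling, on which 1 count of a single feature is worth 0.0546 to 0.0791. Of all features called, 46.2% were higher, a share that ran from 13.3% with factors from snoRNA genes to 64.6% with factors from snRNA and rRNA genes.

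Summed by anticodon, tyrosine precursors rose in knockout hearts and leucine CAA precursors fell. Tyr-GTA precursors were at 21.0, 22.8 and 22.0 CPM in control replicates 1 to 3 and at 67.5, 62.5 and 50.6 CPM in the knockouts, numbered likewise. Every knockout heart lay above every control heart, and the log2 fold change was 1.46 with an SE of 0.20 (adjusted p = 4.21e-05). Leu-CAA precursors were at 34.6, 54.1 and 78.8 CPM in controls and at 19.7, 17.5 and 20.9 CPM in knockouts. The control hearts spread widely, with replicate 1 lowest, and all lay above the knockouts (log2 fold change -1.53, SE 0.27, adjusted p = 0.000344). Mature forms behaved differently: summed Tyr-GTA fell and summed Leu-CAA was not called. Mature Tyr-GTA went from 71.2 ± 1.20 CPM (SD, n = 3) to 29.5 ± 4.31 CPM, with every knockout heart below every control heart (edgeR log2 fold change -1.27, SE 0.19, adjusted p = 0.000102). Mature Leu-CAA was at 39.0 ± 5.19 CPM (SD, n = 3) in controls and 34.4 ± 3.69 CPM in knockouts (adjusted p = 0.471 by edgeR), with overlapping groups. In the whole table with sums, 52.6% of 998 rows were called (26.9% higher and 25.8% lower), and the groups did not overlap in 63.9%, with knockouts above in 32.8% and below in 31.2%. Of the 45 precursor sums of all anticodons 55.6% were called, 46.7% higher and 8.89% lower, and of the 47 mature sums 59.6%, 10.6% higher and 48.9% lower.

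The isoleucine TAT and arginine TCT families were far less abundant. Ile-TAT precursors were at 0.533, 1.73 and 2.55 CPM in controls and at 0.821, 0.555 and 0.649 CPM in knockouts. The groups overlapped through control replicate 1, and the log2 fold change of -1.26 (SE 0.51) was not called (adjusted p = 0.0523). It was called without that library (-1.65, adjusted p = 0.00023), and also with total counts alone, median-of-ratios factors, factors from snoRNA genes and DESeq2 (adjusted p = 0.0194, 0.0415, 0.00245 and 0.0451). Mature Ile-TAT was at 3.29 ± 0.973 CPM (SD, n = 3) in controls and 4.94 ± 0.578 CPM in knockouts, a difference that was not called (adjusted p = 0.0924 by edgeR) and was called without knockout replicate 2 (adjusted p = 0.0304). Arg-TCT rose in both forms. Its precursors were at 2.80, 2.03 and 4.73 CPM in controls and at 6.12, 5.95 and 5.84 CPM in knockouts (log2 fold change 0.90, SE 0.30, adjusted p = 0.0233), and its mature forms at 0.733, 2.13 and 1.86 against 4.26, 3.89 and 4.55 CPM, a log2 difference of 1.40 (SE 0.35, adjusted p = 0.00409). The precursor call was lost without control replicate 2 (adjusted p = 0.159), with DESeq2 (adjusted p = 0.0542) and with 4 of the 5 other scalings. With factors from snoRNA genes the Arg-TCT precursor value fell below 0, to -0.049. The mature Arg-TCT call was lost with total counts alone, with miRNA-based factors and with snoRNA-based factors (adjusted p = 0.0531, 0.0637 and 0.298).

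**Figure D1:**
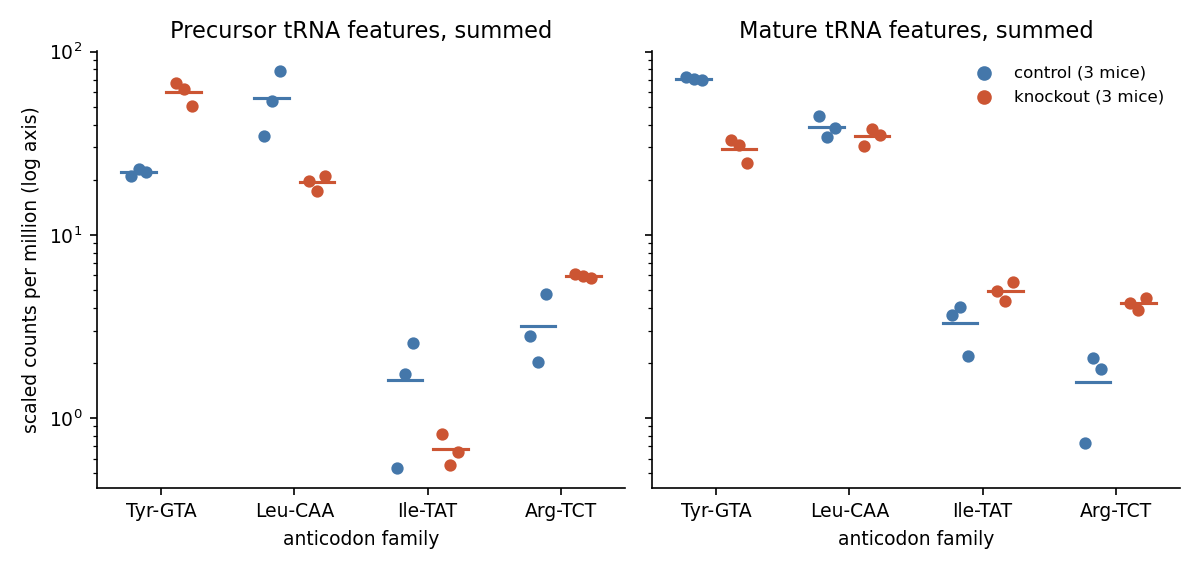
Summed CPM (log axis) of the precursor (left) and mature (right) features of each anticodon family, with 1 point per mouse, control in blue and knockout in orange, and bars at the group means. Tyr-GTA precursors went from a mean of 21.9 to 60.2 CPM while mature Tyr-GTA went from 71.2 to 29.5 CPM, and Leu-CAA precursors went from 55.9 to 19.4 CPM.

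The number of precursor to mature counts within a library does not depend on how libraries are scaled. For Tyr-GTA there were 315 precursor to 1088 mature counts in control replicate 1, 448 to 1399 in replicate 2 and 413 to 1318 in replicate 3. The knockout hearts, numbered likewise, had 904 to 439, 788 to 391 and 623 to 303. Mature reads outnumbered precursor reads in every control heart and the reverse held in every knockout heart. The log2 ratio went from -1.70 ± 0.0763 (SD, n = 3) to 1.03 ± 0.0173, a difference of 2.73 or 6.64 times. Without mature Tyr-GTA-6, whose precursor feature had no reads, the difference was 1.66. An exact two-sided permutation test over the mice gave p = 0.1, the smallest that 3 against 3 allow, and 0.167 adjusted over 5 ratios. The Leu-CAA ratio went the opposite way, from 0.45 ± 0.721 to -0.83 ± 0.253 (difference -1.28, exact p = 0.1). For Arg-TCT (difference -0.55, exact p = 0.4) and Ile-TAT (difference -1.58, exact p = 0.2, 3 mice per group) the ratios overlapped between the groups. Both of these reversed without their most abundant precursor feature, to 0.62 without Arg-TCT-4-1 and to 0.28 without Ile-TAT-1-1. The tRNAs outside the 4 families moved the same way as Tyr-GTA. In controls they had 3392, 4243 and 4755 precursor to 398915, 495515 and 635334 mature counts. In knockouts they had 6989, 6212 and 5943 to 64131, 52543 and 82400, so the shift was not particular to tyrosine.

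Compared with each other, the precursor sums of the 4 families had ratios that did not overlap between the groups in 5 of 6 pairings. Pairings among the other anticodons were not run, so that number has no like share beside it. Of single rows in the table with sums, 63.9% did not overlap. The log2 ratio of Tyr-GTA to Leu-CAA precursors went from -1.27 ± 0.560 (SD, n = 3) to 1.63 ± 0.311, a difference of 2.90 (exact p = 0.1, 0.12 adjusted over 6 pairings). The ratio of Leu-CAA to Arg-TCT precursors differed by -2.44 on the log2 scale, and the difference for Ile-TAT to Arg-TCT precursors was -1.94 (exact p = 0.1 for each). Tyr-GTA to Ile-TAT differed by 2.40 and Leu-CAA to Ile-TAT by -0.50 (exact p = 0.1 for each), the latter by -0.17 without control replicate 1. The ratio of Tyr-GTA to Arg-TCT precursors overlapped between the groups (difference 0.46, exact p = 0.4). Tyr-GTA took 28.0% ± 7.64 (SD, n = 3) of member precursor counts in controls and 69.6% ± 4.15 in knockouts, while Leu-CAA went from 66.3% ± 7.13 to 22.7% ± 3.65.

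Set against the rest of their class, the member precursors were a smaller part of all precursors in every knockout heart, and the member mature forms a larger part of all mature forms. Member precursors had 885, 1587 and 2032 counts in controls, and all precursor tRNAs together had 4277, 5830 and 6787. In knockouts the members had 1261, 1090 and 961 of 8250, 7302 and 6904 precursor counts. The log2 ratio of members to the 445 other precursors went from -1.53 ± 0.368 to -2.54 ± 0.0821 (SD, n = 3; difference -1.01, exact p = 0.1). Its size depended on single features: it was -0.60 without the member Leu-CAA-2-1 and -0.64 without the most abundant other precursor, Asp-GTC-1-11. Mature forms of both kinds had fewer counts in every knockout library: members had 1820, 2190 and 2117 counts in controls and 970, 971 and 859 in knockouts, and the 249 others 398915, 495515 and 635334 against 64131, 52543 and 82400. The log2 ratio of members to the others went from -7.94 ± 0.250 to -6.13 ± 0.419 (difference 1.81, exact p = 0.1). Such sums weigh the most abundant forms most, and the median log2 fold change of the 109 other mature forms tested was only -0.50. The mature ratio without its most abundant features was not run.

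Single features were then tested within the family sums. Of the 26 precursors, 6 had 0 counts in every library and 5 were too rare to test, with at most 47 counts in a library. A count of 0 allows up to 3 counts in a library, which covers counting error only. The 15 precursors tested gave 6 higher, 2 lower and 7 not called, where 50.2% of all 1144 features were called, 23.2% higher and 27.0% lower. Groups did not overlap in 63.0% of all features, with knockouts above in 29.4% and below in 33.7%. Among tested precursor tRNAs of every anticodon 37.7% were called higher and 12.3% lower. Of the 19 mature forms, 1 had 0 counts everywhere and 3 were too rare. The 15 tested gave 3 higher, 4 lower and 8 not called, where 50.8% of all tested mature tRNAs were called, 12.1% higher and 38.7% lower. The median log2 fold change of the tested member precursors was 0.28, beside 0.21 for the 99 other precursors tested and -0.01 for all features, and that of the tested member mature forms was 0.20, beside -0.50 for the 109 others. Precursors Tyr-GTA-1-1, Tyr-GTA-1-2, Tyr-GTA-1-3, Tyr-GTA-1-5 and Arg-TCT-3-1 passed the filter on low counts only through the knockouts, with at most 10 counts in a control. So did mature Arg-TCT-1 and Arg-TCT-3. Precursor Ile-TAT-1-1, with 29 and 47 counts in control replicates 2 and 3, was not kept. The tested set and its medians therefore lean toward higher members. Without the filter the same 6 precursors were called higher and 3 lower.

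**Figure D2:**
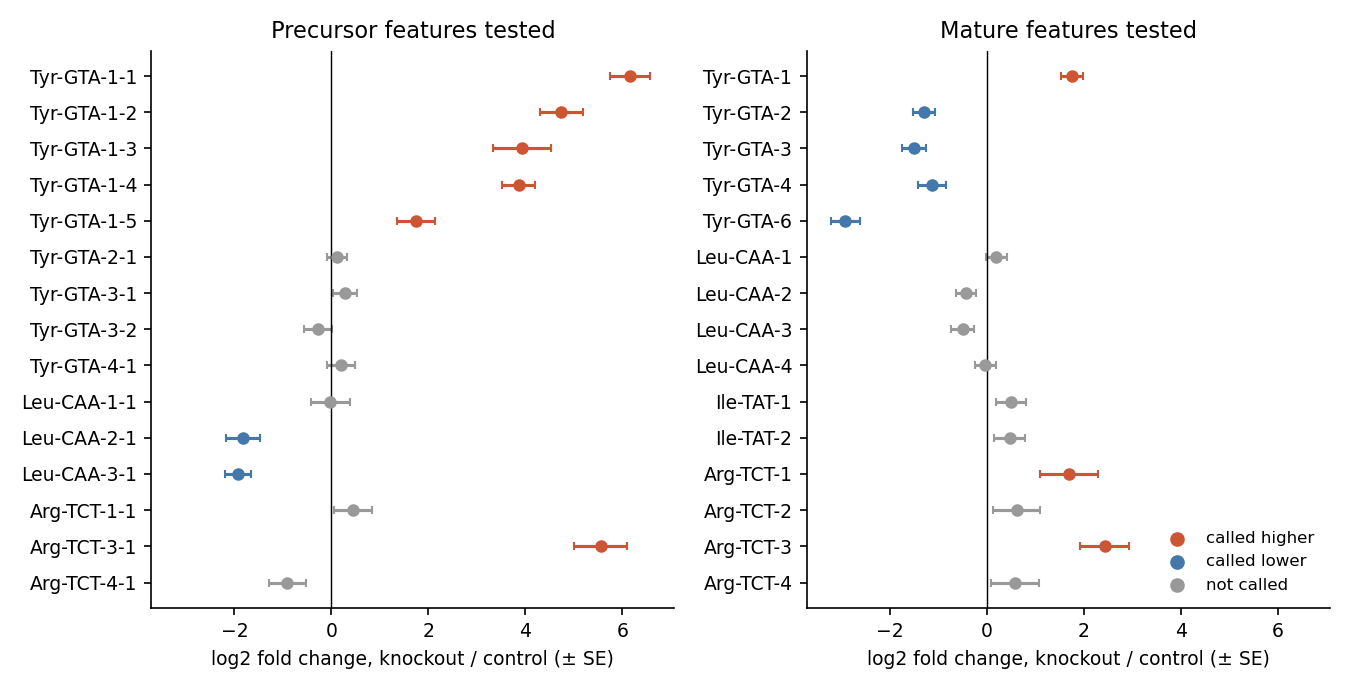
Log2 fold change (knockout over control, bars ± SE) of the 15 precursor (left) and 15 mature (right) features tested, in orange where called higher, in blue where called lower and in grey where not called. The 5 copies of Tyr-GTA-1 lie between 1.74 and 6.17, while the 4 other tyrosine precursors lie between -0.27 and 0.28.

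The called rise of tyrosine precursors came from the 5 copies of isodecoder 1. Precursor Tyr-GTA-1-1 had 1, 5 and 4 counts in controls and 220, 222 and 132 in knockouts. It was barely read in any control heart and ranked among the most read member precursors in every knockout heart (log2 fold change 6.17, SE 0.42, adjusted p = 7.23e-07). The ratio of its scaled counts was 74.4, with a 95% exact counting interval of 40.2 to 156. Such intervals, here and below, pool the reads of a group, so they cover counting error and leave out the spread between mice. Precursor Tyr-GTA-1-4 had 23, 14 and 23 counts in controls and 286, 249 and 148 in knockouts (log2 fold change 3.86, SE 0.34, adjusted p = 4.16e-06). Knockout replicate 3 was the lowest of the knockouts for both copies and still lay far above the controls.

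Precursor Tyr-GTA-1-2 had 1, 2 and 1 counts in controls and 36, 29 and 26 in knockouts (log2 fold change 4.74, adjusted p = 6.76e-06). Precursor Tyr-GTA-1-3 had 2, 0 and 2 against 19, 20 and 13 (3.94, adjusted p = 0.000217). These copies rest on 4 control counts each, so their sizes are loose: the ratios of scaled counts were 29.5 (95% exact counting interval 11.1 to 111) and 16.9 (6.20 to 64.1). Precursor Tyr-GTA-1-5 moved least, from 7, 10 and 5 to 24, 13 and 21 counts (1.74, SE 0.40, adjusted p = 0.00322). Its call was lost with factors from snoRNA genes (0.91, adjusted p = 0.0588).

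With TMM scaling no precursor copy of the other tyrosine isodecoders was called. Precursor Tyr-GTA-2-1, the most read copy in controls, had 170, 194 and 188 counts in controls and 176, 137 and 151 in knockouts. Those counts overlapped, and the log2 fold change was 0.12 (SE 0.20, adjusted p = 0.636), but -0.73 and called lower with factors from snoRNA genes (adjusted p = 0.00751). Precursor Tyr-GTA-3-1 had 35, 57 and 57 against 43, 48 and 47 counts (0.28, adjusted p = 0.378), and its neighbour in name Tyr-GTA-3-2 had 58, 141 and 108 against 78, 51 and 65 (-0.27, adjusted p = 0.457). Tyr-GTA-3-2 was called lower with factors from snoRNA genes (-1.11, adjusted p = 0.00425) and Tyr-GTA-3-1 higher with factors from snRNA and rRNA genes (0.86, adjusted p = 0.0369). Precursor Tyr-GTA-4-1 had 18 to 25 counts in controls and 19 to 21 in knockouts. After scaling every knockout lay above the controls, but the log2 fold change of Tyr-GTA-4-1 was 0.20 (SE 0.29, adjusted p = 0.588). Precursor Tyr-GTA-5-1 had 1 count in all 6 libraries together and Tyr-GTA-6-1 had 0. As a share of tyrosine precursor counts, isodecoder 1 went from 8.73% ± 1.95 (SD, n = 3) to 62.3% ± 6.86, while isodecoder 2 went from 47.6% ± 5.63 to 20.4% ± 3.51. These shares were picked after the values were seen and are a description.

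**Figure D3:**
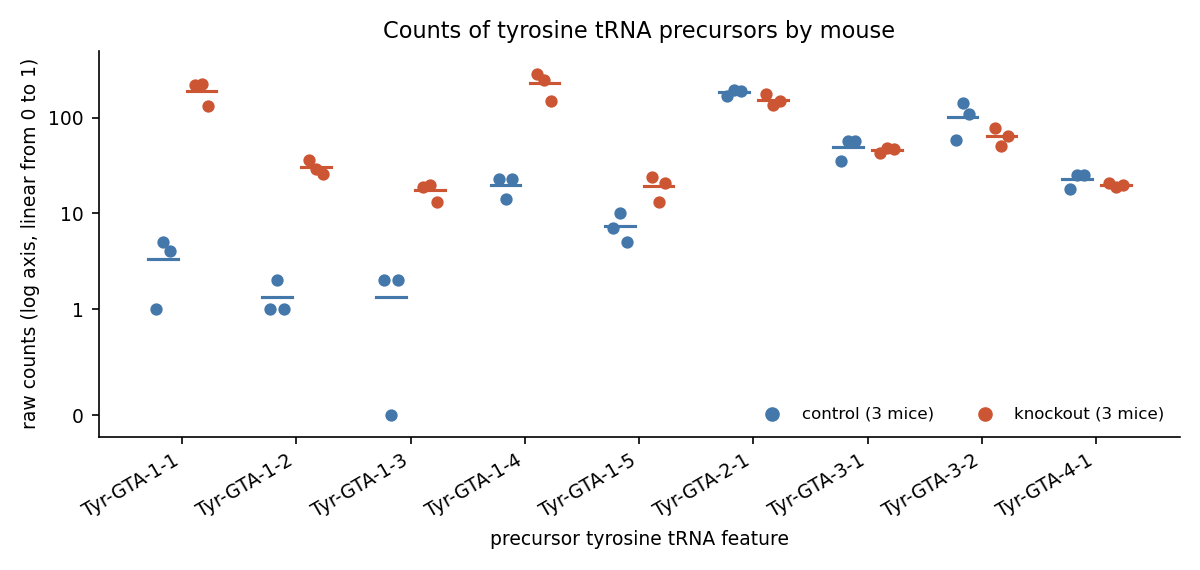
Raw counts (log axis, linear between 0 and 1) of the 9 tyrosine precursors tested, with 1 point per mouse, control in blue and knockout in orange, and bars at the group means. The copies of Tyr-GTA-1 stand higher in every knockout heart, with Tyr-GTA-1-1 at 1 to 5 counts in controls and 132 to 222 in knockouts, while the other 4 copies have similar counts in both groups.

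Among mature tyrosine forms, isodecoder 1 rose and isodecoders 2, 3, 4 and 6 fell. Mature Tyr-GTA-1 had 62, 62 and 66 counts in controls and 180, 182 and 138 in knockouts (log2 fold change 1.77, SE 0.23, adjusted p = 6.80e-05). Mature Tyr-GTA-6, the most read mature form in controls, had 581, 942 and 854 counts there and 102, 92 and 46 in knockouts (log2 fold change -2.92, SE 0.30, adjusted p = 1.28e-05). The fall of Tyr-GTA-6 had no counterpart among precursors, since its own precursor feature was at 0 in all 6 libraries.

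Mature Tyr-GTA-2 went from 212, 192 and 182 counts to 70, 57 and 59 (log2 fold change -1.30, adjusted p = 0.000514). Mature Tyr-GTA-3 went from 191, 159 and 173 to 59, 43 and 42, which was 2.83-fold lower after scaling (adjusted p = 0.000314). Mature Tyr-GTA-4 went from 39, 38 and 39 to 17, 11 and 13 (log2 fold change -1.13, adjusted p = 0.00738). No knockout heart reached the lowest control heart for any of these forms. With factors from snRNA and rRNA genes mature Tyr-GTA-2 (adjusted p = 0.0665) and Tyr-GTA-4 (adjusted p = 0.192) were not called, and the call of Tyr-GTA-4 was also lost with no filter on low counts (adjusted p = 0.242) and when knockout replicate 2 or 3 was left out (adjusted p = 0.115 and 0.0704). Mature Tyr-GTA-5 had at most 11 counts in a library and was not tested. Isodecoder 6 made up 61.8% ± 7.42 (SD, n = 3) of mature tyrosine counts in controls and 20.6% ± 4.74 in knockouts, and isodecoder 1 went from 5.05% ± 0.634 to 44.4% ± 2.95.

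Among the precursors tested, the copies called lower with TMM scaling were both leucine. Precursor Ile-TAT-1-1, not kept by the filter on low counts, had means of 1.53 CPM in controls and 0.355 CPM in knockouts. Precursor Arg-TCT-4-1 was not called but was lower in every knockout heart than in any control heart (log2 fold change -0.91). Precursor Leu-CAA-2-1 had 201, 546 and 755 counts in controls and 123, 101 and 95 in knockouts (log2 fold change -1.82, SE 0.36, adjusted p = 0.00115). Precursor Leu-CAA-3-1 had 293, 455 and 641 against 97, 74 and 108 (log2 fold change -1.92, SE 0.27, adjusted p = 0.000117). Control replicate 1 was the lowest control for both and still lay above each knockout heart. With each library left out in turn the log2 fold changes stayed between -2.09 and -1.48 for Leu-CAA-2-1 and between -2.04 and -1.54 for Leu-CAA-3-1. Precursor Leu-CAA-1-1 had 18, 59 and 81 counts in controls and 34, 33 and 50 in knockouts (log2 fold change -0.02, SE 0.41, adjusted p = 0.965), and Leu-CAA-4-1 had 5 to 12 counts in each library and was not tested.

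No mature leucine CAA form was called. Mature Leu-CAA-3 had 274, 270 and 302 counts in controls and 119, 193 and 147 in knockouts (log2 fold change -0.50, SE 0.24, adjusted p = 0.104). Mature Leu-CAA-2 had 169, 206 and 181 against 100, 108 and 108 counts (log2 fold change -0.44, SE 0.21, adjusted p = 0.0952). Raw counts of both were lower in every knockout library, and their calls depended on the scaling: both were called lower with total counts alone, with miRNA-based and with snoRNA-based factors. Mature Leu-CAA-1 (log2 fold change 0.20) and Leu-CAA-4 (-0.03) had 84 to 129 counts in each library. With snoRNA-based factors Leu-CAA-1 (-0.65, adjusted p = 0.0228) and Leu-CAA-4 (-0.88, adjusted p = 0.00602) were called lower as well.

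Among arginine TCT features, 1 precursor copy rose from almost no reads. Precursor Arg-TCT-3-1 had 1, 0 and 2 counts in controls and 36, 52 and 35 in knockouts (log2 fold change 5.55, SE 0.55, adjusted p = 1.03e-05). With 3 control counts in all, the ratio of its scaled counts was 53.1, with a 95% exact counting interval of 17.8 to 261 that leaves out the spread between mice. The mature form of the same isodecoder, Arg-TCT-3, went from 1, 7 and 3 counts to 14, 16 and 17 (log2 fold change 2.43, SE 0.50, adjusted p = 0.00162). Mature Arg-TCT-1 went from 0, 9 and 9 to 14, 16 and 15 counts (log2 fold change 1.69, SE 0.60, adjusted p = 0.0353), and was no longer called when control replicate 2 or 3 was left out (adjusted p = 0.0586 and 0.0525) or with total counts alone, miRNA-based or snoRNA-based factors.

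Precursor Arg-TCT-4-1, from a gene known for its expression in the nervous system, had 29, 25 and 56 counts in controls and 18, 9 and 18 in knockouts. It took 64.8% ± 3.66 (SD, n = 3) of Arg-TCT precursor counts in controls and 19.7% ± 6.80 in knockouts. Its log2 fold change of -0.91 (SE 0.38, adjusted p = 0.0676) was not called, but was called without control replicate 1 (adjusted p = 0.0372) or 2 (adjusted p = 0.0314) and with total counts alone, miRNA-based and snoRNA-based factors. With replicate number as a block Arg-TCT-4-1 was also called (-0.90, edgeR adjusted p = 0.0388). Precursor Arg-TCT-1-1 had 12, 15 and 31 against 28, 14 and 19 counts (log2 fold change 0.45, adjusted p = 0.358). Mature Arg-TCT-2 (log2 fold change 0.62) and Arg-TCT-4 (0.58) had 3 to 16 counts in each library and were not called. With factors from snRNA and rRNA genes precursor Arg-TCT-1-1 (1.05, edgeR adjusted p = 0.0435) and mature Arg-TCT-2 (1.21, adjusted p = 0.0340) were called higher. The precursors Arg-TCT-2-1, Arg-TCT-5-1 and Arg-TCT-6-1 and the mature form Arg-TCT-6 had 0 counts throughout.

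Isoleucine TAT precursors were rare, with 5 copies of which none passed the filter on low counts. Precursor Ile-TAT-1-1 had 6, 29 and 47 counts in controls and 4, 6 and 4 in knockouts, and the groups overlapped through control replicate 1. In the authors' deposited table its log2 fold change was -2.06 with an adjusted p of 0.0312. Ile-TAT-2-2 and Ile-TAT-2-3 had at most 4 counts in a library, and Ile-TAT-2-1 and Ile-TAT-3-1 had 0. Mature Ile-TAT-1 had 28, 41 and 23 counts in controls and 37, 26 and 38 in knockouts (log2 fold change 0.50, SE 0.30, adjusted p = 0.192), and mature Ile-TAT-2 had 27, 37 and 18 against 29, 29 and 30 (log2 fold change 0.47, SE 0.32, adjusted p = 0.247).

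The miRNA gene Mir1983, whose hairpin printed above covers the Ile-TAT gene n-TItat14 with its leader and trailer, rose. It had 51, 44 and 57 counts in controls and 377, 471 and 403 in knockouts (log2 fold change 3.41, SE 0.24, adjusted p = 1.08e-06), while the Ile-TAT precursor features together had 8, 34 and 48 against 11, 7 and 8. The sources used here do not say how reads that overlap both kinds of feature were assigned. With the Mir1983 counts added to the Ile-TAT precursors, an alternative chosen after the data were seen, the log2 ratio of precursor to mature counts went from 0.48 ± 0.756 (SD, n = 3) to 2.75 ± 0.313. That difference of 2.27 (exact p = 0.1) has the opposite sign to the -1.58 found without them.

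Within isodecoders, the ratio of precursor to mature counts was higher in every knockout heart than in any control heart for all 4 tyrosine isodecoders that had enough reads. Ratios were taken for the 13 isodecoders with at least 20 counts of each form over the 6 libraries. Isodecoders of other anticodons were not run, so that number has no like share beside it. Of all single features tested, 63.0% did not overlap between the groups. For Tyr-GTA-1 the log2 ratio went from -0.92 ± 0.0664 (SD, n = 3) in controls to 1.51 ± 0.202 in knockouts (difference 2.43, exact p = 0.1). Isodecoders 2, 3 and 4 differed by 1.40, 1.47 and 1.33 (exact p = 0.1 for each, 3 mice per group), although their precursor counts alone were not called. For Tyr-GTA-2 the log2 ratio was -0.32, 0.01 and 0.05 in controls and 1.32, 1.26 and 1.35 in knockouts. All 4 tyrosine isodecoders therefore had more precursor than mature reads in each knockout heart. The tRNAs outside the 4 families also had more precursor and fewer mature counts in every knockout library than in any control. The direction was thus not particular to tyrosine.

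The other families had no common direction. The log2 ratio of Arg-TCT-3 differed by 2.80 and that of Leu-CAA-3 by -1.35 (exact p = 0.1 for each, 3 mice per group), without overlap between the groups. The Arg-TCT-3 value rests on 3 control precursor counts, and was 1.58 without control replicate 2 and 1.62 with 5 counts added to each sum. Leu-CAA-2 (-1.23), Ile-TAT-1 (-2.19), Arg-TCT-1 (-1.99), Arg-TCT-4 (-1.40) and Leu-CAA-4 (0.88) overlapped between the groups (exact p = 0.2 for each, 3 mice per group). So did Leu-CAA-1 (-0.04, exact p = 1.0) and Ile-TAT-2 (0.27, exact p = 0.7). Adjusted over the 13 ratios the lowest p was 0.217, and no ratio could pass a threshold of 0.05 with 3 mice per group.

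**Figure D4:**
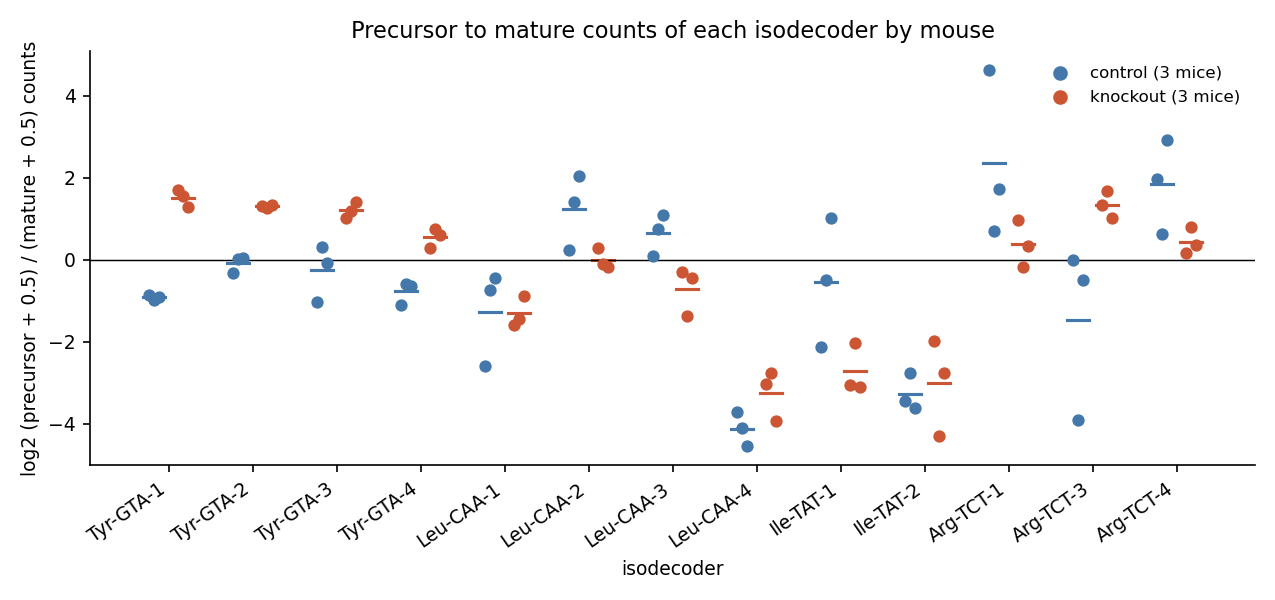
Log2 ratio of precursor to mature counts (0.5 added to each) of 13 isodecoders, with 1 point per mouse, control in blue and knockout in orange, and bars at the group means. In the 4 tyrosine isodecoders every knockout heart lies above 0 and above every control heart, while the leucine, isoleucine and arginine isodecoders have no common direction.

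Other transcripts of RNA polymerase III were read beside the tRNAs. Of a list of 8 such genes, 6 fell, 0 rose and 2 were not called, where 27.0% of all features were called lower and 23.2% higher. Among the 6, Rn7s1 and Rn7s2 had similar counts in each library and may not be separate observations. Values of these 8 genes under the other scalings were not taken. RNase P RNA (Rpph1), the catalytic subunit of the enzyme that removes the tRNA leader, was at 51.0 CPM in controls and 56.0 CPM in knockouts (log2 fold change 0.14, SE 0.19, adjusted p = 0.577). The related RNase MRP RNA (Rmrp) differed by 0.43 on the log2 scale (SE 0.18, adjusted p = 0.0691). The 7SK RNA Rn7sk fell by 4.80 on the log2 scale, the Y RNAs Rny1 and Rny3 by 2.14 and 3.60, the signal recognition particle RNAs Rn7s1 and Rn7s2 by 1.18 and 1.07, and the vault RNA Vaultrc5 by 1.51. Rn7sk had 15222, 28502 and 36089 counts in control replicates 1 to 3, the same order as Leu-CAA precursors with 520, 1065 and 1482. Control replicate 1 was the lowest in both, and its part in the leucine and isoleucine results beyond the values given without it was not tested.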

How the data were processed

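Small RNA of 6 hearts (3 control, 3 knockout, grouped by sample titles) was counted, with 4 technical replicates per mouse per the series' design text. The authors deposited raw counts per feature. They also deposited a normalized signal, the authors' count divided by 1 factor per library, which was used only to check that relation. The authors' deposited table holds log2 fold changes, p-values and a Wald score. At an adjusted p under 0.05 it has 6 member precursors higher and 3 lower, and 2 mature members higher and 3 lower. Mature Arg-TCT-1 and Tyr-GTA-4, called by edgeR here, have adjusted p of 0.0711 and 0.0652 there. The genome build was mm10, and the submitters' processing notes name DESeq2 1.16.1, featureCounts 1.5.1, Bowtie2 2.2.9 and cutadapt 1.14. The annotation, the use of strand and the treatment of multiply aligned reads were not given in the sources used here, and with near-identical tRNA copies they decide which copy, and which form, receives a read. There were 0 columns of other samples. No library was a copy of another (chi-square over its degrees of freedom at least 79.1 for each pair).

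Features were kept by filterByExpr (minimum count 10, minimum total 15), which left 1144 of 30638, and tested with edgeR 4.0.16 in R 4.3.3 (TMM, no covariate). In a further fit all nuclear tRNA features were replaced by sums per anticodon and form (998 rows kept). Ratios within a library had 0.5 added to each sum, with exact two-sided permutation tests over mice (SciPy 1.17.1). The fit was tested on simulated data. Alternatives were total counts, median-of-ratios factors, factors from miRNA, from snoRNA and scaRNA, and from snRNA and rRNA genes, DESeq2 1.42.0, no filter, a replicate block and each library left out. Isodecoder ratios, pairings between families, shares and the addition of Mir1983 were chosen after the data were seen. Named are all anticodon sums, all tested members and a fixed list of RNA polymerase III transcripts. Members that were not tested are named after their values were seen. The members and lists were chosen with earlier results of these data known.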

Additional observations from a re-analysis of the deposited data

How the results depend on the processing

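The precursor Tyr-GTA sum was called under every alternative run, with its smallest log2 fold change, 0.51, under snoRNA-based factors. For precursor Ile-TAT the log2 fold change was called with total counts (-1.71), median-of-ratios factors (-1.42), snoRNA-based factors (-2.21), DESeq2 (-1.42) and the replicate block (-1.12). Precursor Arg-TCT was not called with total counts (0.46), median-of-ratios factors (0.76), miRNA-based factors (0.62) or DESeq2 (0.76), and was -0.049 with snoRNA-based factors. Mature Arg-TCT was not called with total counts (0.94), miRNA-based (1.07) or snoRNA-based factors (0.44). Mature Leu-CAA was called with total counts (-0.62) and snoRNA-based factors (-1.12). With snoRNA-based factors 5 member precursors and 8 mature forms were called lower, and with snRNA- and rRNA-based factors 2 mature forms. Precursor Tyr-GTA-2-1 (-0.73) and mature Leu-CAA-1 (-0.65) reversed with snoRNA-based factors. These scalings moved the median of all features by -0.34 (total counts), -0.18 (miRNA), -0.84 (snoRNA) and 0.55 (snRNA and rRNA), and the share of higher calls among all called features from 46.2% to 28.2%, 34.8%, 13.3% and 64.6%. Without a filter that share was 37.9% and more features were tested. The cause of these changes was not tested further.

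With each library left out in turn, the log2 fold change of precursor sums ranged from 1.30 to 1.73 for Tyr-GTA, -1.78 to -1.27 for Leu-CAA, -1.65 to -0.94 for Ile-TAT and 0.54 to 1.16 for Arg-TCT. Mature Ile-TAT ranged from 0.19 to 0.84 and lower member precursors numbered 2 to 4. The isodecoder ratio differences of Ile-TAT-2 (-0.24 to 0.92) and Leu-CAA-1 (-0.71 to 0.37) changed sign. The 6 higher precursor calls were made again in each of these 6 fits.

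The Tyr-GTA ratio difference was 3.34 without its most abundant precursor and 1.66 without its most abundant mature feature. Over all 4 families it was 0.76, then 1.16 and 0.18 in the same order. Without their most abundant precursor the Ile-TAT ratio (0.28) and the Arg-TCT ratio (0.62) reversed, and the Ile-TAT ratio was 2.27 with Mir1983 added. The ratio of member to other precursors was -0.60 and -0.64 without the most abundant member or other precursor.

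Same-numbered mice did not deviate together (r = -0.13, -0.02 and -0.19 across features for numbers 1 to 3). Differently numbered mice had r of -0.05 to 0.17. With 3 mice per group these values cannot exclude a pairing, and the mice were treated as unpaired. With the replicate block 6 member precursors were called higher and 3 lower, and 3 and 4 mature forms. Most members had under 100 counts in a library, which limits what their single values can show.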
